A study of Mus musculus and Homo sapiens with 59 samples.

Results

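The genes of this report encode, in the nucleus, the subunits of the mitochondrial machinery of oxidative phosphorylation, and a few proteins that share their names. They were chosen by symbol alone (names starting Nduf with a, b, c, s or v and a number, Uqcr, Cox4 to Cox8, Sdha to Sdhd, and Atp5) among rows that held at least 1 TPM (Salmon's length-scaled share of the transcripts in a library) in 2 libraries. Of 19407 mouse rows 83 matched the names and 79 passed that level, and of 22192 human rows 91 matched and 85 passed. Of the 79 mouse members, 35 belong to complex I, 4 to complex II, 8 to complex III, 15 to complex IV and 15 to complex V. The other 2, Atp5s and Atp5sl, are named after ATP synthase without being subunits of it. Ndufa4 is counted with complex IV, where its protein is found. The human members were 36, 4, 8, 14 and 15 in the same order, with ATP5S and ATP5SL, and 6 rows for antisense, readthrough or near-copy genes whose counts are uncertain.

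Polyadenylated RNA had been sequenced from 59 libraries of cultured cells in 30 groups, of which 29 held 2 libraries and 1 held a single library. NIH3T3 mouse fibroblasts (35 libraries) and LLC mouse lung carcinoma cells (16 libraries) were studied with no construct (parental), with hMLKL1–181-2Fv, a fragment of human MLKL on a domain that the drug AP20187 pairs, or with mGSDMD1-276-HBD, a fragment of mouse GSDMD on a hormone-binding domain that responds to 4OHT. Both proteins open the plasma membrane during inflammatory cell death. AP20187 was given at 100 nM for 1 h to MLKL cells and parental NIH3T3 cells, and 4OHT at 50 nM for 2.5 h to GSDMD cells and parental LLC cells. NIH3T3 and LLC cells labelled as having no construct received the membrane-permeabilizing detergent digitonin (55 µg/mL, 3 h). The human carcinoma lines HT29 and BxPC3, with 4 libraries each and no construct, received 40 µg/mL for 2 h. NIH3T3 MLKL cells were also treated in calcium-free medium, in libraries titled siCTR or siPKC, and in libraries titled p65ko or noko. The labels do not spell out these 4 names, and each pair is compared here as titled. The libraries are named as replicates, and nothing in the labels says that they came from separate cultures, that a line was 1 clone, or which promoter drove a construct. Every p below therefore measures the spread between these libraries, which may be technical.

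Oxidative phosphorylation passes electrons from NADH through complex I, or from succinate through complex II, by way of complex III and cytochrome c to oxygen at complex IV, and the proton gradient built on the way drives ATP synthesis by complex V. Complex I has a core of conserved subunits that carry out the reaction and a shell of accessory subunits, and its remaining core subunits, like the catalytic core of complex IV, are encoded in mitochondrial DNA. The nuclear genes were described here only. Their transcription is known to depend on the factors NRF1, GABPA and YY1 and on estrogen-related receptors in many tissues.

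Promoter windows of 5 members are printed because these genes were among those that changed in the most comparisons downward (Ndufa8, Uqcrc1) or upward (Cox7a2l, Cox8a), or had a large fall (Ndufs3). They were picked after the values were seen. Each runs 5′ to 3′ on the gene's strand from 250 bases before to 50 bases after the start of the gene, from RefSeq on GRCm38.p6, and capitals mark a match on either strand to an NRF1 motif (GCGCA, any base, then GCGC) or to the ETS motif that GABPA binds (CCGGAAG). The windows are Ndufa8 at chr2:36049289-36049588 (minus strand), Uqcrc1 at chr9:108936398-108936697 (plus strand), Ndufs3 at chr2:90904672-90904971, Cox7a2l at chr17:83514284-83514583 and Cox8a at chr19:7217567-7217866 (all 3 on the minus strand).
Ndufa8: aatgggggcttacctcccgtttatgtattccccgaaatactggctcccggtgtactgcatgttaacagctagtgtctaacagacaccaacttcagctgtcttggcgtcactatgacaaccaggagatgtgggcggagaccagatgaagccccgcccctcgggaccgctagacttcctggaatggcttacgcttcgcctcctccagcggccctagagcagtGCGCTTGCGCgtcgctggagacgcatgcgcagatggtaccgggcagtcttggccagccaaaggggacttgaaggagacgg
Uqcrc1: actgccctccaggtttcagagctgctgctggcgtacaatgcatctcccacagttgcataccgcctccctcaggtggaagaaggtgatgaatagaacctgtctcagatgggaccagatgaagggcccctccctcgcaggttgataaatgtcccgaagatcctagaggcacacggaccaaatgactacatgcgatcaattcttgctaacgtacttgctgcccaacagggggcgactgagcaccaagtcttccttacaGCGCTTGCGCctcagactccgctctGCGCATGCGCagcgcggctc
Ndufs3: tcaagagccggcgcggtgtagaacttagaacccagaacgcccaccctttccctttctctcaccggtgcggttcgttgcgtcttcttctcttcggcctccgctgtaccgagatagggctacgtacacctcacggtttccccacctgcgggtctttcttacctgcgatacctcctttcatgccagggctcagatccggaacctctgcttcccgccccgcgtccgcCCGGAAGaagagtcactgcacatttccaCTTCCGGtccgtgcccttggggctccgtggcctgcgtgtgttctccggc
Cox7a2l: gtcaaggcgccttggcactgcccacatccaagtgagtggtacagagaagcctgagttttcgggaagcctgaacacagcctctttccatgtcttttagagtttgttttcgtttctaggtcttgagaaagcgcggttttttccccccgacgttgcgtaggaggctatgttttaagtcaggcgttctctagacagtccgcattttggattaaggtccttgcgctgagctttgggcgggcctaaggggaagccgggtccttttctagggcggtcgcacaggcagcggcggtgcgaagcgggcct
Cox8a: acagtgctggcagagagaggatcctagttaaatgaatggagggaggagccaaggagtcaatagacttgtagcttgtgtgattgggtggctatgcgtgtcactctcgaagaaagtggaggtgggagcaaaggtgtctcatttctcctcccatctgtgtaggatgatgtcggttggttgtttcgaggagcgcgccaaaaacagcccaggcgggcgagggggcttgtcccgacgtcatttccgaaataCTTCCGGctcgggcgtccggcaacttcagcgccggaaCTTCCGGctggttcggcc

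The Ndufa8 window held 1 NRF1 match and the Uqcrc1 window 2, the Ndufs3 and Cox8a windows held 2 ETS matches each, and the Cox7a2l window held none of the 5 motifs searched. Over the members, 73 windows of 67 genes were searched, and windows on chromosome 18 were left out of every count. The NRF1 motif was in 24.7% of the member windows, against 4.60% of all 32851 windows of this length that were searched. The shares were 21.9% against 8.86% for the ETS motif, 12.3% against 1.40% for the YY1 motif AAGATGGCG, 11.0% against 4.72% for the estrogen-related receptor motif AAGGTCA, and 5.48% against 1.79% for the cyclic AMP response element TGACGTCA. The motif for NRF1 has a free base at 1 position, both strands were searched, and the base composition of the windows was not matched. These are matches of letters, and binding was not measured.

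All 8 fibroblast markers were at 1 TPM or more (median over libraries) in NIH3T3 cells and 0 of 5 epithelial markers were. LLC cells held 4 of 8 and 3 of 5, with Epcam and Cdh1 under 1 TPM, and HT29 and BxPC3 cells held all 6 epithelial markers. HT29 cells held 0 of 8 fibroblast markers and BxPC3 cells 3 of 8. Of 6 macrophage and leukocyte markers NIH3T3 cells held 4 and LLC cells 2, and each human line held 2 of 5. Heart and muscle markers at that level were 1 of 5 in NIH3T3, 0 of 5 in LLC, 1 of 4 in HT29 and 2 of 4 in BxPC3 cells. Rela, the gene of p65, was at 13.6 and 14.1 TPM in untreated p65ko and 49.7 and 49.2 TPM in untreated noko libraries. Gsdmd, whose row can also collect reads of the mouse construct, was at 375.9 and 377.0 TPM in untreated LLC GSDMD cells and at 22.6 TPM in both untreated parental LLC libraries. The 4 LLC libraries of the digitonin experiment, labelled with no construct, held Gsdmd at 326 to 337 TPM, so that they stood with the GSDMD line, and their label is given below as deposited. Values are TPM, which keep no sequencing depth, and changes are differences of log2(TPM + 1), which understate the change of low genes.

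Subunit genes of complexes IV and V were the most abundant members in untreated cells. In the 18 untreated NIH3T3 libraries the median level over genes was 534 TPM for complex V, 483 TPM for complex IV, 428 TPM for complex III, 149 TPM for complex I and 121 TPM for complex II. Atp5b, the catalytic beta subunit of ATP synthase, was the highest in both mouse lines, with a median of 1492 TPM (1093 to 1859 TPM) in NIH3T3 and 1837 TPM in LLC cells. In the human lines ATP5E, the epsilon subunit, led with medians of 1257 TPM in HT29 and 1023 TPM in BxPC3 cells. Together the members made up 1.97% to 2.98% of the TPM of a mouse library and 1.54% to 2.12% of a human one. That share was 2.97% and 2.98% in the untreated NIH3T3 libraries of the digitonin experiment and 2.34% and 2.32% in the treated ones, and 2.00% and 2.03% against 1.56% and 1.54% in BxPC3 cells. The 16 other untreated NIH3T3 libraries held 2.24% to 2.65%, so that the digitonin controls lay above them all and the digitonin-treated libraries within their range. In bulk samples, fewer cells of a type and less RNA per cell cannot be told apart.

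In NIH3T3 MLKL cells, 1 h of AP20187 lowered 31 of 76 members and raised 0. That is 40.8% of the members, against 16.5% of all tested genes that fell and 15.8% that rose, and the median log2 fold change was -0.13 for the members and -0.022 for all genes. The falls were small and were found in every complex. In complex I 4 of 7 core and 12 of 27 accessory genes fell. In complexes II, III and V the counts were 3 of 4, 4 of 8 and 5 of 15, and in complex IV 2 of 12 genes without the tissue isoforms. Ndufb7, an accessory subunit of the membrane arm, was at 227 and 211 TPM in the untreated and 164 and 177 TPM in the treated libraries (log2 fold change -0.36, SE 0.059, adjusted p 7.45e-05). Ndufa6, an accessory subunit of the matrix arm, was at 246 and 234 TPM in the untreated and 194 and 197 TPM in the treated libraries (log2 fold change -0.30, SE 0.048, adjusted p 5.39e-05). The groups did not overlap for either gene. Atp5o, which encodes a subunit of the stalk of ATP synthase, was at 346 and 351 TPM in the untreated and 281 and 297 TPM in the treated libraries (log2 fold change -0.27, SE 0.050, adjusted p 0.000294). Ndufa3, another accessory subunit of complex I, changed by -0.29. Without 1 of the untreated libraries, 15 or 19 members passed, and 18 without treated replicate 1. The count was also 18 in a fit to these 4 libraries alone, 52 after quantile normalization and 13 with the trend over transcript length removed. All genes with transcripts of 500 to 1000 bases, the class of most members, had a median of -0.10.

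Parental NIH3T3 cells given the same drug showed 0 of 77 members past the threshold, with 0.0174% of all genes higher and 0.287% lower, and 3 members had an unadjusted p under 0.05 in limma's test. The response of MLKL cells differed from theirs for 18 of 78 members, all more negative in MLKL cells, against 8.10% of all genes in that direction and 12.4% in the other. Ndufb7 (difference -0.42, adjusted p 0.000978), Uqcrq, a small subunit of complex III (-0.36, 0.00481), and Ndufs8, a core iron-sulfur subunit of complex I (-0.33, 0.000639), were among them. Without parental untreated or treated replicate 1, 9 members passed, and 11 without untreated MLKL replicate 2. The parental cells also stood apart in Cox7b2, an isoform gene of a small complex IV subunit, which was at 32.6 to 40.8 TPM in their 4 libraries and at 3.24 TPM or less in the other 47 mouse libraries. Those others include the NIH3T3 libraries of the digitonin experiment, labelled as carrying no construct, where the highest value was 1.23 TPM.

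In calcium-free medium, 1 of 78 members passed after AP20187, with backgrounds of 2.27% higher and 3.42% lower. It was Sdha, the flavoprotein subunit of complex II, at 82.3 and 84.1 TPM in the untreated and 75.3 and 77.6 TPM in the treated libraries (log2 fold change -0.12, SE 0.028, adjusted p 0.0123), and it did not pass without untreated replicate 2 or treated replicate 1. The response was more positive in calcium-free than in complete medium for 16 of 78 members (20.5%) and more negative for 0, against 10.8% and 11.1% of all genes. Among the largest differences were Ndufa6 (0.41, adjusted p 0.000139), Atp5g1, a gene of the proton-carrying c subunit (0.39, 0.000777), Uqcrq (0.39, 0.00265) and Ndufa12, an accessory subunit (0.39, 0.00398). This comparison and that with parental cells share the libraries of MLKL cells in complete medium. Before the drug, 1 member was higher and 13 of 76 lower when calcium was absent from the medium (background 8.55% and 27.7%). The largest of these were Uqcrb, a quinone-binding subunit of complex III, at 251 and 258 TPM against 385 and 370.3 TPM (log2 fold change -0.57, SE 0.059, adjusted p 1.58e-07), and the accessory gene Ndufa5 at 182 and 163 TPM against 232 and 248 TPM (log2 fold change -0.47, SE 0.091, adjusted p 0.000302). Without either untreated library in complete medium 7 or 8 members passed in place of 14, and 5 without untreated calcium-free replicate 2.

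**Figure D1:**
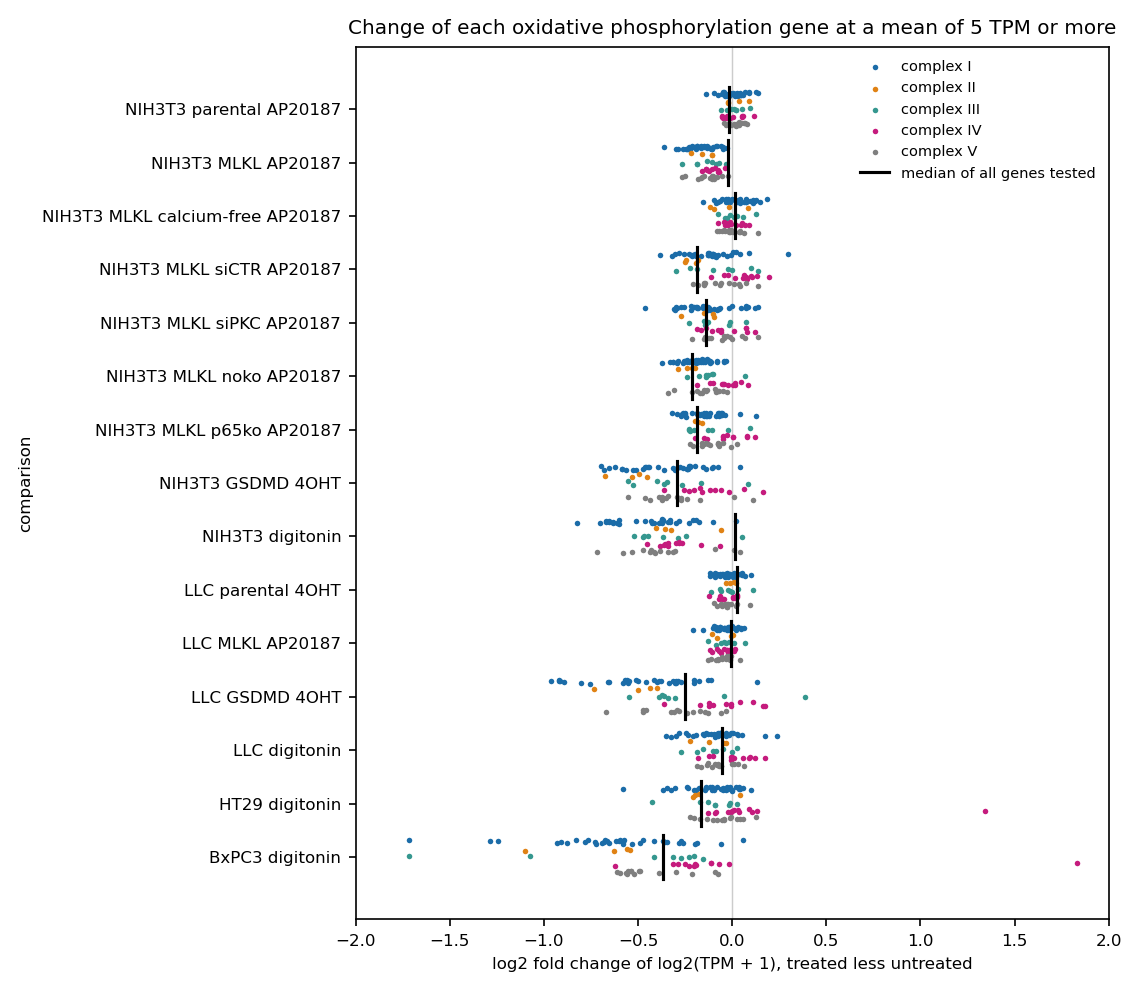
Each point is the log2 fold change of 1 gene of complexes I to V at a mean of 5 TPM or more in either group, for 15 comparisons of treated with untreated libraries (x axis, log2 scale), with a black tick at the median of all tested genes. Points for complex IV lie to the right of most points for complex I in the GSDMD comparisons, and nearly all members lie to the left of the tick in NIH3T3 cells given digitonin.

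The 4 other NIH3T3 MLKL experiments shared a feature that bears on every count in them: the median log2 fold change of all genes lay between -0.14 and -0.22, so counts are given also after median centring, which gives all libraries the same median over the tested genes. In siCTR cells 29 of 76 members fell and 3 rose (background 51.8% and 13.7%), and after centring 3 fell and 27 rose (27.1% and 28.0%). In siPKC cells, where the treated group is 1 library and its spread is taken wholly from the other groups of the model, 23 fell and 0 rose of 76 (37.5% and 10.5%), and 5 fell and 7 rose after centring (19.9% and 19.2%). In noko cells 45 of 75 fell and 0 rose (55.5% and 10.6%), and 1 fell and 22 rose after centring (23.3% and 27.6%). For p65ko cells the counts were 36 lower and 1 higher of 77 (50.4% and 8.99%), and 1 and 19 after centring (18.9% and 24.5%). Before centring the share of members that fell was 38.2% in siCTR and 30.3% in siPKC cells, below the background in both, and 60% in noko and 46.8% in p65ko cells, near it. Without untreated replicate 1 of p65ko cells 24 members passed in place of 37, and 19 without treated replicate 2.

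Within these experiments the complexes differed. Before centring, all 7 core genes of complex I and all 4 genes of complex II fell in siCTR cells, whereas 0 of 12 complex IV genes fell and 2 rose. After centring the members that fell there were Atp5sl, Ndufb10 and Ndufs1, so that no other core gene and no gene of complex II passed downward. Ndufs1, the largest core subunit of complex I, was at 76.6 and 72.0 TPM in the untreated and 58.3 and 60.4 TPM in the treated libraries (log2 fold change -0.32, SE 0.047, adjusted p 5.88e-06). Ndufb10, an accessory subunit of the membrane arm, was at 224 and 205 TPM in the untreated and 161 and 167 TPM in the treated libraries (log2 fold change -0.39, SE 0.056, adjusted p 4.19e-06). The genes that rose were Ndufa1, an accessory subunit of complex I (0.30, adjusted p 0.00154), and Cox8a (0.20, 0.0134) and Cox6b1 (0.13, 0.0201), which encode small subunits of complex IV. After quantile normalization the adjusted p was 0.381 for Cox8a and 0.334 for Cox6b1, and with the length trend removed it was 0.109 for Ndufs1. Ndufb10 also had one of the largest falls in noko cells, at 195 and 190.5 TPM in the untreated and 152 and 145 TPM in the treated libraries (log2 fold change -0.37, SE 0.056, adjusted p 6.64e-06), and Ndufs7, the core subunit next to the quinone site, had the largest fall in siPKC cells, where the single treated library is assumed to vary like the other groups, at 146 and 138 TPM in the untreated and 103 TPM in the treated library (log2 fold change -0.46, SE 0.11, adjusted p 0.00148). In p65ko cells Ndufa8, an accessory subunit on the intermembrane side, was at 233 and 233 TPM in the untreated and 187 and 186 TPM in the treated libraries (log2 fold change -0.32, SE 0.042, adjusted p 1.94e-06). Cox7a2l, which encodes a protein that joins complexes III and IV into supercomplexes, was at 463 and 462 TPM in the untreated and 506 and 501 TPM in the treated libraries (log2 fold change 0.12, SE 0.046, adjusted p 0.0290) and was the gene that rose there. It passed neither in noko cells (0.083) nor in siCTR cells (0.065).

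The response of p65ko cells differed from that of noko cells for 0 of 77 members in limma's test, against 2.34% of all genes more positive and 1.76% more negative. At an unadjusted p under 0.05, 4 members differed. Between siPKC and siCTR cells 1 member differed, Cox8a (-0.36, adjusted p 0.0382), with 4.96% and 3.33% of all genes, and it did not pass without untreated siCTR replicate 2, without either treated siCTR library, or without untreated siPKC replicate 1. Without untreated siCTR replicate 1, 5 members passed. In untreated p65ko against noko cells 18 members were higher and 15 lower of 76 (background 31.8% and 15.2%). Atp5b was at 1094 and 1093 TPM against 1499 and 1504 TPM (log2 fold change -0.46, SE 0.023, adjusted p 2.41e-12), Ndufa1 at 176 and 171 TPM against 116 and 121 TPM (log2 fold change 0.55, SE 0.075, adjusted p 4.50e-06) and Ndufb11, another accessory gene, at 169 and 161 TPM against 125 and 118 TPM (log2 fold change 0.44, SE 0.055, adjusted p 1.67e-06). In untreated siPKC against siCTR cells 12 were higher and 10 lower of 76 (23.9% and 21.7%), among them the complex I accessory genes Ndufb4 (0.43) and Ndufa12 (-0.41) and Uqcrh, the hinge subunit of complex III (0.40). Without untreated siPKC replicate 1, 13 passed in place of 22.

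In NIH3T3 GSDMD cells given 4OHT for 2.5 h, 59 of 76 members fell and 1 rose. The share that fell was 77.6%, against 58.6% of all genes lower and 20.0% higher, while the medians were alike, at -0.30 for members and -0.29 for all genes. After centring 25 members fell and 16 rose (37.0% and 34.7% of all genes). The centred counts were 4 lower and 0 higher of 7 core genes of complex I, and 0 lower and 7 higher of 12 complex IV genes. All 7 core genes of complex I fell before centring, with a median of -0.59, as did all 4 of complex II (-0.51), 7 of 8 of complex III (-0.35) and 13 of 15 of complex V (-0.34). In complex IV 6 of 12 fell and 1 rose, with a median of -0.14.

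Ndufs3, a core subunit of the matrix arm of complex I, was at 96.9 and 101 TPM in the untreated and 60.0 and 62.6 TPM in the treated libraries (log2 fold change -0.68, SE 0.077, adjusted p 5.63e-08). Sdhb, the iron-sulfur subunit of complex II, was at 153 and 153 TPM in the untreated and 98.5 and 92.5 TPM in the treated libraries (log2 fold change -0.67, SE 0.047, adjusted p 3.61e-11). Ndufa5 was at 255 and 266 TPM in the untreated and 170.1 and 151 TPM in the treated libraries (log2 fold change -0.70, SE 0.091, adjusted p 5.48e-07). In all 3 genes both treated libraries lay far below both untreated ones. Further falls were those of Ndufs1 (-0.62), Ndufb8, an accessory subunit (-0.59), Uqcrc1, a core protein of complex III (-0.55), Atp5g1 (-0.55), Sdha (-0.53), Uqcrfs1, the Rieske iron-sulfur protein (-0.36), and Ndufv1, which binds the flavin that accepts electrons from NADH (-0.30). The last 2 did not pass after centring (adjusted p 0.0890 and 0.696). Cox4i1, the common isoform of subunit 4, had a value of -0.016 (adjusted p 0.822). Cox7a2l was at 388 and 382 TPM in the untreated and 435 and 427 TPM in the treated libraries (log2 fold change 0.16, SE 0.046, adjusted p 0.00318), again the only member that passed upward before centring in this comparison.

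In LLC GSDMD cells given 4OHT 59 of 76 members fell and 4 rose (background 54.0% and 27.9%), and 45 fell and 12 rose after centring (45.7% and 34.9%). The medians were -0.32 for members and -0.25 for all genes. All 7 core genes of complex I fell, with a median of -0.56, and these falls passed after centring too. Of the complex IV genes 4 fell and 3 rose, with a median of -0.020. Ndufv2, a core iron-sulfur subunit of complex I, was at 138 and 128 TPM in the untreated and 68.1 and 67.2 TPM in the treated libraries (log2 fold change -0.96, SE 0.038, adjusted p 3.68e-10). Ndufs3 was at 152 and 151 TPM in the untreated and 79.4 and 79.5 TPM in the treated libraries (log2 fold change -0.92, SE 0.042, adjusted p 1.25e-09). Ndufa8 was at 221 and 219.6 TPM in the untreated and 118 and 115 TPM in the treated libraries (log2 fold change -0.91, SE 0.045, adjusted p 2.10e-09). These 3 genes, with Ndufa5 (-0.92), had the largest falls that met the naming rule. Uqcrq went the other way from most of complex III, at 414 and 425 TPM in the untreated and 525 and 573 TPM in the treated libraries (log2 fold change 0.39, SE 0.073, adjusted p 0.000324). Cox6a1 (0.18), Cox8a (0.17) and Cox7a2l (0.11), genes of complex IV, were the other members that rose, and Cox8a did not pass after quantile normalization (adjusted p 0.217).

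Parental LLC cells given 4OHT showed 0 of 77 members past the threshold, with 0.819% of all genes higher and 0.0450% lower, and 7 members had an unadjusted p under 0.05. Against them, the response of LLC GSDMD cells was more negative for 52 of 78 members and more positive for 3 (background 49.4% and 22.4%, and after centring 33 and 12 members against 38.6% and 30.9%). The difference was -0.93 for Ndufa8 (adjusted p 1.16e-07), -0.91 for Ndufs3 (9.43e-08) and -0.94 for Ndufs7 (3.48e-05). The 3 more positive genes were Uqcrq (0.45), Cox6c, a small complex IV subunit (0.16), and Cox7a2l (0.10). No parental NIH3T3 cells given 4OHT were among the libraries used here.

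**Figure D2:**
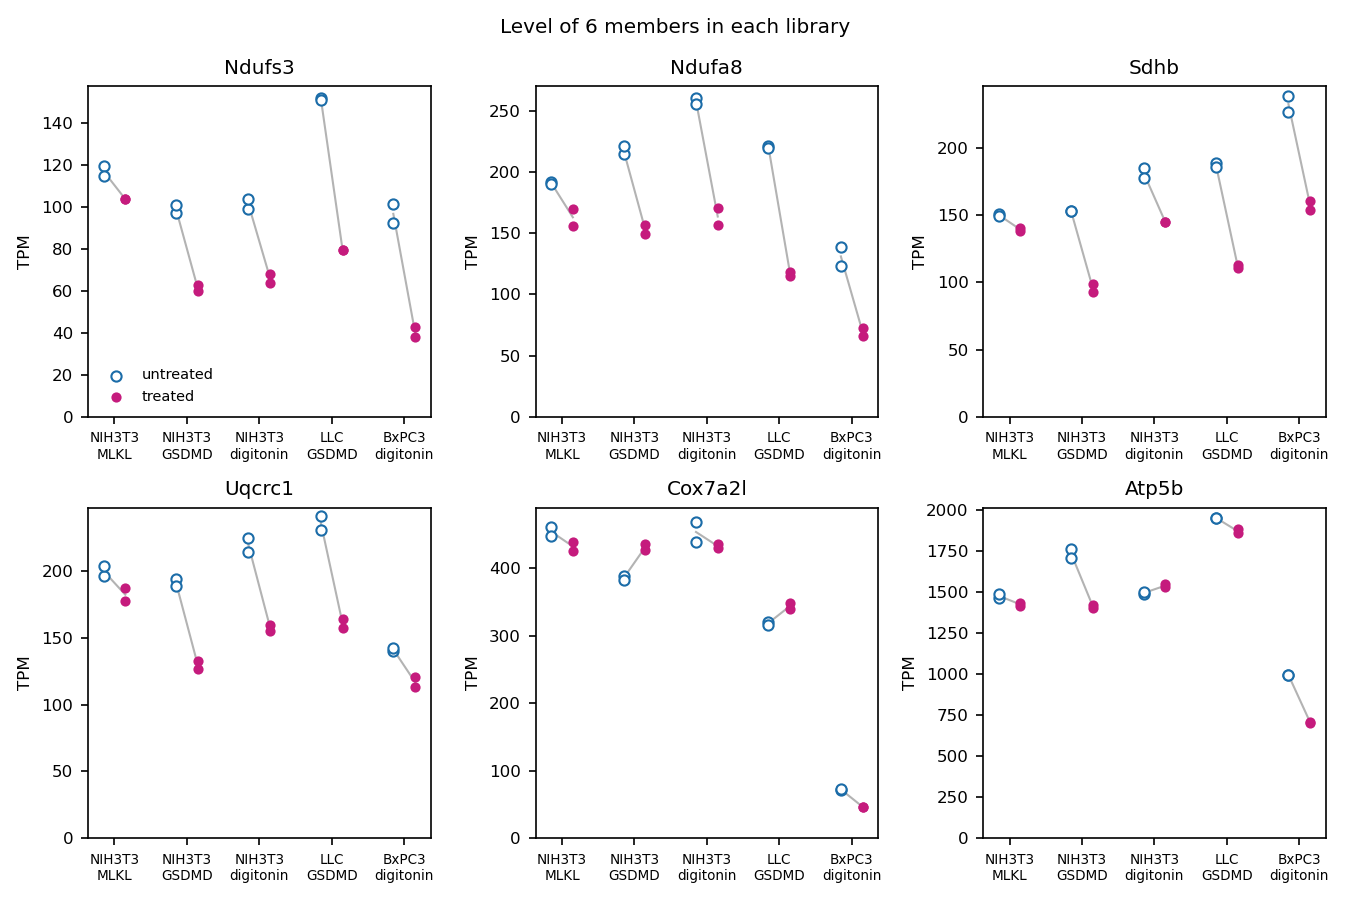
TPM of 6 members in each library of 5 comparisons (y axis from 0), with open circles for untreated and filled circles for treated libraries and a line joining the group means; BxPC3 values are those of the human genes. Both treated libraries of Ndufs3, Ndufa8, Sdhb and Uqcrc1 lie below both untreated ones in all 5 comparisons, while Cox7a2l lies above in the 2 GSDMD comparisons and Atp5b lies slightly above in NIH3T3 cells given digitonin.

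In NIH3T3 cells given digitonin most genes of every complex fell. Of 75 members 65 fell (86.7%) and 0 rose, whereas 34.2% of all genes fell and 39.3% rose, and the median log2 fold change was -0.37 for members and 0.015 for all genes. After centring 74 of 75 fell, against 46.3% of all genes lower and 31.3% higher. Centring lowered the values here by more than the median change of all genes. It turned Ndufs1, Atp5b and Atp5a1 from positive to negative. Among genes of 500 to 1000 bases, all genes had a median of -0.33, near the -0.39 of the 38 members of that length. In the other length classes the members lay further below. The 10 members of up to 500 bases had a median of -0.37, against -0.14 for all genes of that length. The 25 members over 1000 bases had -0.32. All genes in the class just over 1000 bases had -0.235, and the longest of the length classes had 0.18. With the trend over length removed 39 members passed in place of 65. All complexes took part: 6 of 7 core and 25 of 27 accessory genes of complex I fell, 3 of 4 of complex II, 7 of 8 of complex III, 11 of 12 of complex IV and 12 of 15 of complex V. Ndufs7 was at 204 and 179 TPM in the untreated and 113 and 102 TPM in the treated libraries (log2 fold change -0.82, SE 0.089, adjusted p 3.97e-08). Atp5g1 was at 398 and 385 TPM in the untreated and 243 and 232 TPM in the treated libraries (log2 fold change -0.72, SE 0.053, adjusted p 9.07e-11). Ndufa2 and Ndufa11, accessory genes of complex I, changed by -0.67 and -0.70. Some complex IV genes that did not pass after GSDMD release in NIH3T3 cells fell here. Cox4i1 was at 1047 and 1006 TPM in the untreated and 803 and 800.1 TPM in the treated libraries (log2 fold change -0.36, SE 0.060, adjusted p 1.87e-05). Cox8a changed by -0.28 and Cox6a1 by -0.36. These falls did not hold with the trend over transcript length removed. Cox8a then changed sign, to a log2 fold change of 0.046, and Cox4i1 and Cox6a1 did not pass (adjusted p 0.565 and 0.577). The members that did not pass included the large subunits Ndufs1 (0.022), Sdha (-0.060), Atp5b (0.043), Atp5a1, the alpha subunit of ATP synthase (0.0087), and Uqcrc2, a core protein of complex III (0.053). The difference between the GSDMD and digitonin responses was not tested.

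In LLC cells the same detergent dose was followed by 22 members lower and 6 higher of 77, near or under the background of 32.2% and 20.3%, and the difference from NIH3T3 cells was not tested. Their median was -0.070, and that of all genes -0.056. Ndufv2 was at 117 and 124 TPM in the untreated and 96.2 and 96.0 TPM in the treated libraries (log2 fold change -0.32, SE 0.038, adjusted p 2.68e-05), and Ndufa5 changed by -0.35. Cox8a was at 681 and 685 TPM in the untreated and 767 and 772 TPM in the treated libraries (log2 fold change 0.17, SE 0.048, adjusted p 0.0101), Cox4i1 changed by 0.091 and Cox6a1 by 0.12, all upward. None of these 3 rises passed after quantile normalization (adjusted p 0.0519, 0.0593 and 0.198). Without treated replicate 2, 18 members passed in place of 28. In LLC MLKL cells given AP20187, 1 of 77 members passed, Cox7a2l at 398 and 398 TPM in the untreated and 374 and 365 TPM in the treated libraries (log2 fold change -0.11, SE 0.025, adjusted p 0.0226), with 2.08% of all genes lower and 5.48% higher. It did not pass without either untreated library or without treated replicate 1.

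In HT29 cells 23 of 83 members fell and 3 rose (background 44.0% and 16.5%), and after centring 7 fell and 27 rose (28.9% and 27.6%). UQCRFS1 was at 169 and 165 TPM in the untreated and 121 and 128 TPM in the treated libraries (log2 fold change -0.42, SE 0.068, adjusted p 0.00141), and NDUFS3 changed by -0.37, NDUFV3, an accessory subunit, by -0.58 and SDHB by -0.21. NDUFA4L2, the isoform of NDUFA4 that low oxygen is known to induce, was at 3.47 and 4.55 TPM in the untreated and 10.4 and 12.9 TPM in the treated libraries (log2 fold change 1.34, SE 0.19, adjusted p 0.000893), the largest rise of a member in this line. The other 2 that rose, COX7B (0.13) and ATP5G2 (0.12), encode a complex IV subunit and the c subunit of ATP synthase. COX7B changed by -0.060 after quantile normalization, and SDHB did not pass after centring (adjusted p 0.425).

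In BxPC3 cells 72 of 84 members fell (85.7%) and 1 rose, against 56.9% and 23.7% of all genes, with a median of -0.51 for members and -0.37 for all genes. After centring 34 fell and 25 rose (36.9% and 41.3%). UQCRFS1 was at 193 and 193 TPM in the untreated and 53.9 and 62.5 TPM in the treated libraries (log2 fold change -1.72, SE 0.068, adjusted p 7.03e-07). NDUFV3 was at 25.1 and 24.4 TPM in the untreated and 8.12 and 5.69 TPM in the treated libraries (log2 fold change -1.72, SE 0.13, adjusted p 1.63e-05). NDUFS3 was at 92.2 and 101 TPM in the untreated and 37.8 and 42.8 TPM in the treated libraries (log2 fold change -1.24, SE 0.066, adjusted p 2.72e-06). SDHD, a membrane anchor of complex II, changed by -1.10 and UQCR10, a small subunit of complex III, by -1.07, and NDUFA5 by -1.29. COX7A2L, whose mouse counterpart rose in the GSDMD comparisons, fell here (-0.62). The single rise was in COX6B2, the testis isoform of subunit 6B, at 7.26 and 6.02 TPM in the untreated and 25.8 and 26.5 TPM in the treated libraries (log2 fold change 1.83, SE 0.093, adjusted p 2.11e-06), and its level in untreated HT29 cells was 0.266 and 0.271 TPM. The response to digitonin was more negative in BxPC3 than in HT29 cells for 66 of 85 members and more positive for 2 (background 43.5% and 20.6%), and after centring for 34 and 7 (29.3% and 30.4%). For UQCRFS1 the difference was -1.29 (adjusted p 5.87e-05), for NDUFA5 -1.14 (0.000330) and for NDUFA4L2 -1.35 (0.00510).

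A comparison within each library does not depend on how libraries are scaled to each other. The mean log2(TPM + 1) of the 7 complex I core genes was set against that of the 12 complex IV genes that are not tissue isoforms, a measure chosen after the values were seen and given without a test. The core lay below complex IV in every library. MLKL cells in calcium-free medium, where the groups overlapped, are not counted among the 12 permeabilization comparisons here. In 11 of these 12 the gap between core and complex IV was wider in the treated than in all untreated libraries of the same experiment. LLC MLKL was the exception. In LLC GSDMD cells the difference was -1.71 and -1.69 in untreated and -2.35 and -2.29 in treated libraries, a change of -0.62. The change was -0.45 in BxPC3, -0.35 in NIH3T3 GSDMD, -0.28 in siCTR and -0.19 in HT29 cells, and -0.067 in NIH3T3 MLKL cells in complete medium. In MLKL cells in calcium-free medium (0.0076), parental LLC cells given 4OHT (0.0093) and LLC MLKL cells (0.0088) the groups overlapped. Parental NIH3T3 cells given AP20187 moved slightly the other way (0.039), and their groups did not overlap. They lay at -2.232 and -2.200 in treated and -2.278 and -2.233 in untreated libraries, so that groups also stood apart without permeabilization. Untreated levels of the measure ran from -2.45 in NIH3T3 cells of the digitonin experiment to -1.63 in 1 HT29 library. They also differed between experiments within 1 line: the untreated NIH3T3 libraries alone ran from -2.45 in the digitonin experiment to -1.98 in p65ko cells.

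**Figure D3:**
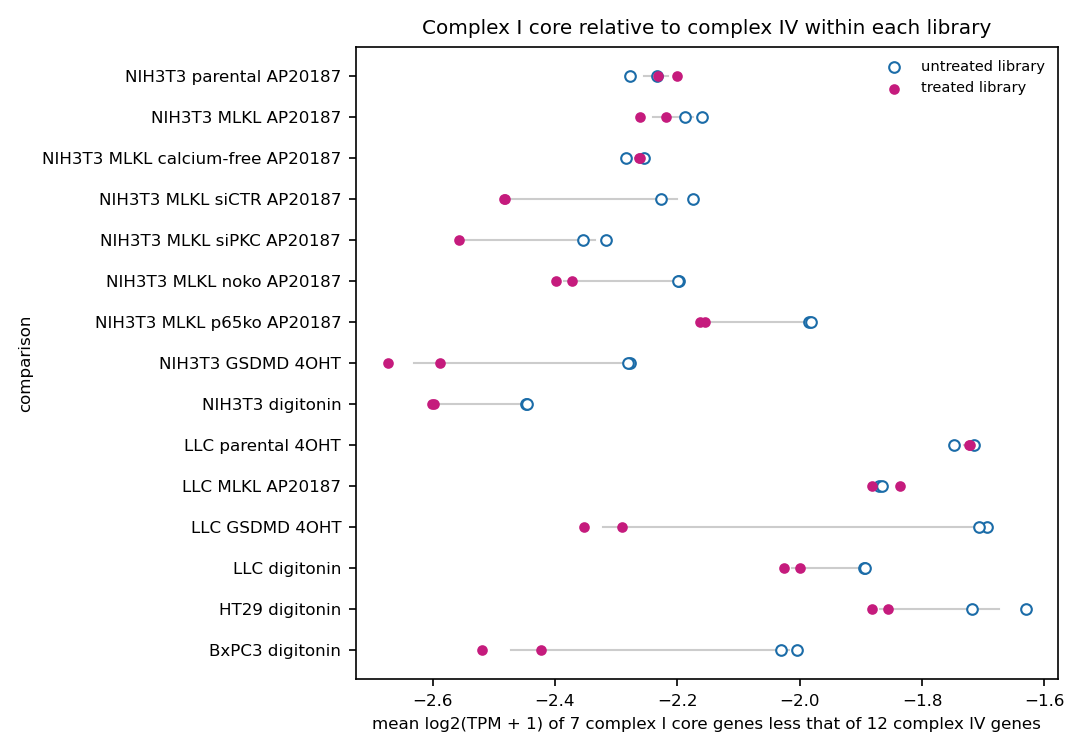
Each point is 1 library: the mean log2(TPM + 1) of 7 complex I core genes less that of 12 complex IV genes (x axis, log2 scale), with open circles for untreated and filled circles for treated libraries and a grey line between group means. Treated points lie to the left of the untreated ones in 11 of 12 comparisons with a permeabilizing treatment, farthest in LLC GSDMD cells. Calcium-free medium, where the points overlap, is not counted among the 12.

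Over the 10 mouse comparisons with permeabilization (calcium-free medium not counted), Ndufa8 and Uqcrc1 were lower in 9, LLC MLKL being the one where neither passed. Another 11 members were lower in 8, among them the core genes Ndufs7, Ndufs8 and Ndufv1 of complex I, Sdhc and Sdhd, the membrane anchors of complex II, and Atp5g1 and Atp5o of complex V. Uqcrc1 was at 231 and 241 TPM in the untreated and 157 and 164 TPM in the treated libraries in LLC GSDMD cells (log2 fold change -0.55, SE 0.031, adjusted p 7.11e-09) and at 225 and 214 TPM in the untreated and 159.8 and 155 TPM in the treated libraries in NIH3T3 cells given digitonin (log2 fold change -0.48, SE 0.037, adjusted p 1.61e-10). After centring, Ndufa8 was lower in 7 and Uqcrc1 in 5 of the 10. At the other end Cox7a2l and Cox8a were higher in 3 comparisons each, and in 6 each after centring, and Cox6a1 was higher in 2. Cox7a2l was lower in LLC MLKL cells, however, and Cox8a in NIH3T3 cells given digitonin. The 3 rises of Cox8a did not pass after quantile normalization. The counts of falls are near those of other genes: of the 75 members tested in all 10 comparisons 17.3% were lower in 8 or more, against 16.2% of the 9929 genes so tested. Lower in 0 of the 10 were 1.33% of these members and 16.2% of these genes. Except for the use of 1 line in several experiments, these comparisons have separate treated and untreated libraries.

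Apart from Cox7b2 in parental NIH3T3 cells, the isoforms of complex IV that are typical of muscle, lung or testis or induced by low oxygen stayed at low values in the mouse lines. Cox4i2, Cox8b and Ndufa4l2 reached at most 0.53, 0.57 and 0.89 TPM in any mouse library and Cox6b2 exceeded 1 TPM in 1, so these 4 were left out of the members. Cox6a2 and Cox7a1, muscle isoforms, reached at most 3.23 and 5.12 TPM. Complex I subunit Ndufs5 was at 1 TPM or more in 8 of 51 mouse libraries and at most at 6.40 TPM, far below its neighbours in the complex, so its value is uncertain in this table. COX4I2, COX7A1 and COX8C were below 1 TPM in all human libraries.

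Genes of mitochondrial ribosomal proteins and of assembly factors fell in the comparisons in which many members fell. Of 77 genes of mitochondrial ribosomal proteins, which make the subunits encoded in mitochondrial DNA, 74 fell in NIH3T3 GSDMD cells (median -0.56), 73 in LLC GSDMD cells (-0.67), 75 in NIH3T3 cells given digitonin (-0.50) and 75 in BxPC3 cells (-1.13). The shares of all genes that fell were 58.6%, 54.0%, 34.2% and 56.9%, and after centring 53, 65, 77 and 68 of the 77 fell, against 37.0%, 45.7%, 46.3% and 36.9% of all genes. In NIH3T3 MLKL cells 33 fell (42.9% against 16.5%, median -0.17) and in calcium-free medium 0 of 77. The largest in the GSDMD comparisons included Mrpl10, from a mean of 99.6 TPM to 31.2 TPM in LLC cells (-1.64). Genes of cytosolic ribosomal proteins were different: 27 rose and 5 fell of 82 in NIH3T3 GSDMD cells, 35 and 8 of 81 in LLC GSDMD cells and 40 and 11 of 83 in BxPC3 cells, where 20.0%, 27.9% and 23.7% of all genes rose. After centring 74, 65 and 80 were higher, against 34.7%, 34.9% and 41.3% of all genes. In NIH3T3 cells given digitonin 67 of 82 fell, against 34.2% of all genes, with a median of -0.24.

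Assembly factors of complexes I and II, which are not part of the finished enzymes, fell for 15 of 18 in NIH3T3 GSDMD (median -0.66), 17 of 18 in LLC GSDMD (-0.87) and 17 of 19 in BxPC3 cells (-1.13), against the same shares of all genes (58.6%, 54.0% and 56.9%). Foxred1, needed for complex I assembly, went from a mean of 21.5 TPM to 9.12 TPM in NIH3T3 GSDMD cells (-1.15), and Ndufaf7, a methyltransferase needed for complex I assembly, from a mean of 24.5 TPM to 7.94 TPM in LLC GSDMD cells (-1.52). For complexes III to V, 19 of 28 fell and 1 rose in NIH3T3 GSDMD and 23 of 29 fell and 3 rose in LLC GSDMD cells, 67.9% and 79.3%, the first near the share of all genes. After centring 11 and 21 fell and 7 and 5 rose, against 37.0% and 45.7% of all genes lower and 34.7% and 34.9% higher. Cox15, which makes the heme of complex IV, went from a mean of 19.7 TPM to 6.21 TPM in LLC GSDMD cells (-1.52). In BxPC3 cells COA7, a factor for respiratory chain assembly, went from a mean of 38.5 TPM to 3.87 TPM (-3.02), and TOMM5, a small subunit of the outer membrane import channel, from a mean of 282 TPM to 84.5 TPM (-1.73). Of the import genes 22 of 23 fell in BxPC3, 20 of 23 in HT29 and 15 of 22 in NIH3T3 GSDMD cells (95.7%, 87.0% and 68.2%, against 56.9%, 44.0% and 58.6% of all genes).

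Of 16 genes of the TCA cycle 15 fell in NIH3T3 GSDMD and 15 in BxPC3 cells, but in NIH3T3 cells given digitonin 7 fell and 4 rose, and in NIH3T3 MLKL cells 2 fell. The shares that fell were 93.8%, 93.8%, 43.8% and 12.5%, against 58.6%, 56.9%, 34.2% and 16.5% of all genes, so that the list stood near the background in the MLKL cells. Ogdh, a subunit of the 2-oxoglutarate dehydrogenase, went from a mean of 58.4 TPM to 32.5 TPM in NIH3T3 GSDMD cells (-0.83). Glycolytic genes changed in both directions, with 4 higher and 12 lower of 18 in NIH3T3 GSDMD and 6 and 6 of 18 in LLC GSDMD cells. In the NIH3T3 cells that is 22.2% and 66.7%, near the 20.0% and 58.6% of all genes. In the LLC cells 27.9% of all genes were higher and 54.0% lower. The glucose transporter gene Slc2a1 rose from a mean of 225 TPM to 509 TPM (1.17) and Hk2, hexokinase, from a mean of 26.6 TPM to 86.4 TPM (1.66) in NIH3T3 GSDMD cells, while Tpi1, triosephosphate isomerase, fell (-0.66). Of 12 genes for carriers of electrons and nucleotides 11 fell in NIH3T3 GSDMD cells (7 after centring), with Vdac1, the outer membrane channel, at -0.43. Among regulators of mitochondrial gene expression the mouse cells showed both directions: in NIH3T3 GSDMD cells Myc rose (1.42), as did Pprc1, a coactivator of NRF1 (0.80), whereas Polrmt, the mitochondrial RNA polymerase (-1.04), and Tfam, the factor that packs mitochondrial DNA (-0.62), fell. In all, 7 of these 15 genes rose and 6 fell there (46.7% and 40%, against 20.0% and 58.6% of all genes). Genes encoded in mitochondrial DNA were not analysed here.

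**Figure D4:**
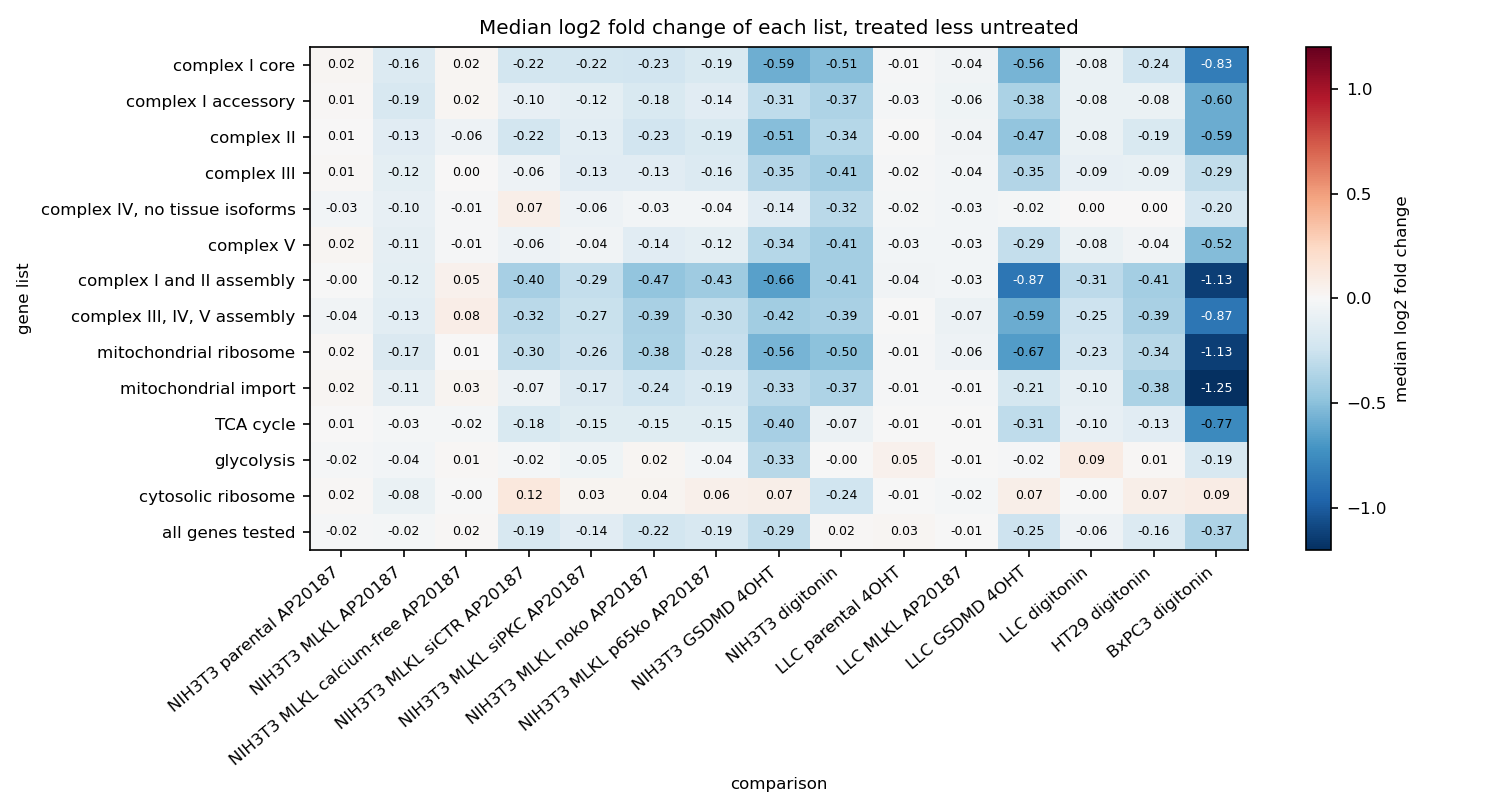
Median log2 fold change, treated less untreated, of each group of genes (rows) in 15 comparisons (columns), with the number in each cell and colour from blue (lower) to red (higher). Medians of assembly factors and mitochondrial ribosomal protein genes are at or below those of most subunit groups in the GSDMD and BxPC3 comparisons, and the cytosolic ribosome row is near or above 0 except in NIH3T3 cells given digitonin.

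Transcript length moved with the change, and not the same way in all experiments. Members are short, with a median annotated transcript of 737 bases against 2593 for tested genes. Across 73 members, which share the same libraries, the correlation of the log2 fold change with log2 length (Pearson) was -0.48 in siCTR, -0.36 in NIH3T3 GSDMD and -0.29 in LLC GSDMD cells, where short members fell less. It was 0.27 in NIH3T3 cells given digitonin, and over all genes with a length 0.33 there and -0.021 in NIH3T3 GSDMD cells. In NIH3T3 GSDMD cells 10 members of up to 500 bases had a median of -0.19 and 25 members over 1000 bases -0.37, whereas all genes of up to 500 bases had 0.018. With the trend over length removed from every library, 39 members passed in place of 60 in NIH3T3 GSDMD cells. Complex IV genes are among the shorter members, so length and complex cannot be told apart fully here.

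**Figure D5:**
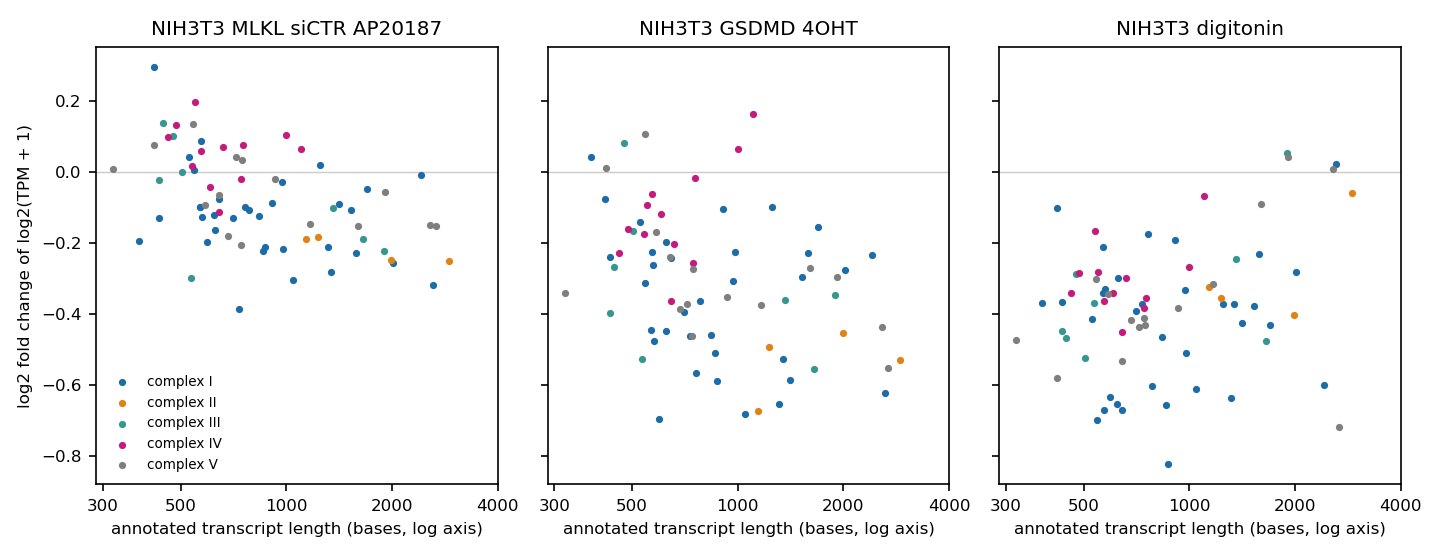
Log2 fold change of each member of complexes I to V at a mean of 5 TPM or more (y axis) against its annotated transcript length in bases (x axis, log scale) in 3 NIH3T3 comparisons, coloured by complex. In siCTR and GSDMD cells the long members lie lower, while in cells given digitonin the highest points are long genes.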

How the data were processed

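The deposited tables hold 1 TPM value per gene and library, which the authors made with Salmon (per the submitters' processing notes, which also name mm10 and hg19). Salmon's version, its index and read trimming were not given in the sources used here. As TPM keeps no depth, no counting error can be given. Differences of log2(TPM + 1) were fitted with limma 3.58.1 (trend, R 4.3.3), with 1 model each for NIH3T3, LLC and the human libraries, on genes at 1 TPM or more in at least 2 libraries of a comparison. P-values were adjusted by Benjamini and Hochberg over all genes tested, with a threshold of 0.05, and the code was tested on simulated data. There were 24 comparisons, 15 of treated with untreated libraries, 6 of responses and 3 of untreated cells. Groups hold 2 libraries (siPKC with AP20187 holds 1), whose spread is pooled over the model.

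The members and lists were chosen with earlier results of these data known. Genes named are 16 fixed members, up to 4 rises and 4 falls per comparison with groups that do not overlap and at least 5 TPM, members that passed in the most comparisons, complex IV isoforms and up to 2 genes per list, with others picked after their values were seen. Alternatives were a pseudocount of 0.1, median centring, quantile normalization, unfiltered genes, a fit to each comparison's own libraries, a replicate block, leaving out each library and, added after the data were seen, removal of the trend over transcript length (GENCODE vM21) or of small RNA rows.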

Additional observations from a re-analysis of the deposited data

Results flagged for a closer look

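Responses that differed between groups by the test of the difference are given here, each beside the share of all genes tested that differed. The response to AP20187 differed between NIH3T3 MLKL and parental cells for 18 members (23.1%, against 20.5% of all genes), and between calcium-free and complete medium for 16 (20.5% against 21.9%). It differed between siPKC and siCTR cells for 1 member (1.32% against 8.29%), where the treated siPKC group is 1 library. The response to 4OHT differed between LLC GSDMD and parental cells for 55 members (70.5% against 71.8%). All these shares but that for siPKC lie near those of all genes. The response to digitonin differed between BxPC3 and HT29 cells for 68 members (80.0% against 64.1%).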

How the results depend on the processing

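The pseudocount of 0.1 changed no count of members that passed by over 1.5 times in any of the 24 comparisons. Median centring gave 12 members in siPKC, 23 in noko and 20 in p65ko cells, 1 in parental LLC cells, 3 for siPKC minus siCTR and 41 for BxPC3 minus HT29. Quantile normalization gave 52 in NIH3T3 MLKL cells and 30 for calcium-free minus complete medium. With only the libraries of the comparison the counts were 18 in NIH3T3 MLKL, 0 in calcium-free, 18 in siCTR, 15 in siPKC, 0 in LLC MLKL and 16 in LLC digitonin cells, 0 for siPKC minus siCTR, 1 for p65ko minus noko, and 22 and 4 for untreated calcium-free and siPKC cells. With the length trend removed they were 13 in NIH3T3 MLKL, 21 in siCTR, 11 in siPKC, 22 in noko, 13 in p65ko, 39 in NIH3T3 GSDMD, 39 in NIH3T3 digitonin and 0 in LLC MLKL cells, 9 for MLKL minus parental, 7 for calcium-free minus complete medium and 4 for siPKC minus siCTR. For siPKC minus siCTR, no filter gave 0 and removal of small RNA rows 2. The replicate block gave 2 members for siPKC minus siCTR and moved no other count by over 1.5 times. Same-numbered libraries share only a number (correlations of deviations -0.047 to 0.13), and no block could be fitted for LLC MLKL cells, whose treated libraries carry 1 number. Leaving out 1 library in turn gave 15 to 30 for NIH3T3 MLKL AP20187, 0 to 1 for NIH3T3 MLKL calcium-free AP20187, 19 to 31 for NIH3T3 MLKL p65ko AP20187, 0 to 1 for LLC MLKL AP20187, 18 to 32 for LLC digitonin, 9 to 16 for the difference NIH3T3 MLKL minus parental, 0 to 5 for the difference NIH3T3 MLKL siPKC minus siCTR, 5 to 10 for untreated NIH3T3 MLKL calcium-free minus complete medium, 13 to 25 for untreated NIH3T3 MLKL siPKC minus siCTR members. Genes that changed sign were Cox4i1 in NIH3T3 GSDMD cells (0.26 after centring and 0.24 without the length trend), Ndufv1 there (0.037 without the length trend), Cox8a in NIH3T3 digitonin (0.046 without it), Atp5a1, Atp5b and Ndufs1 in NIH3T3 digitonin (-0.14, -0.11 and -0.13 after centring, and -0.11 for Atp5a1 after quantile normalization) and COX7B in HT29 cells (-0.060 after quantile normalization). The cause was not tested, and the values keep no depth from which a detection limit could be set.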
